A study of Mus musculus with 6 samples.

Results

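Macrophages of dermal collecting lymphatic vessels were compared between mice of 12 months and mice of 6 weeks. A droplet barcode was taken as a cell when it had at least 500 detected genes and at most 10% of its UMIs (unique molecular identifiers, 1 per captured transcript) from mitochondrial genes. It was taken as a macrophage when C1qa, C1qb and C1qc, the chains of complement C1q, summed to at least 3 UMIs and the lymphocyte genes Cd3e and Cd79a were at 0. By this rule 4480 of the 20086 cells of the 4 libraries were macrophages, with 1739 and 940 in the libraries of 6 weeks and 1710 and 91 in those of 12 months. In all 6 libraries of the series the rule found 5438 macrophages among 24488 cells.

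The vessels were those joining the inguinal to the axillary node of C57BL/6 mice, and each age (6 weeks, 12 months or 18 months) has 1 library labelled male and 1 labelled female. All groups shared 1 handling: Evans Blue was injected into the inguinal node to show the vessels, fat and connective tissue were trimmed away, and the vessels were digested with collagenase, elastase, dispase and DNase before red cells were lysed. The labels do not say how many mice were pooled, and p-values therefore measure only the spread between these samples, part of which may be technical. At 6 weeks and at 12 months the libraries of an age differ in sex by Xist and Ddx3y (values below). That spread therefore also includes sex and differences between animals. The mice of 18 months came from another supplier, and their 2 libraries are used for levels alone. The libraries are called 6 weeks 1 and 12 months 1 (labelled male) and 6 weeks 2 and 12 months 2 (labelled female).

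Collecting lymphatic vessels carry lymph by the contraction of a muscle coat, and macrophages lie along and within their walls. Vessel-associated macrophages of connective tissue typically carry the hyaluronan receptor LYVE-1 and the folate receptor FOLR2, take up debris and iron, and keep a low inflammatory tone at rest. When stimulated through pattern receptors or when stressed, macrophages transcribe chemokines that draw neutrophils and monocytes, cytokines such as TNF and IL-10, and antioxidant enzymes governed by the factor NRF2. Tissue digestion itself is known to switch on some of the same immediate early and inflammatory genes.

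The gated cells carried the identity genes of macrophages. Adgre1, which encodes F4/80, stood at 343, 339, 298 and 248 CPM (its UMIs relative to all UMIs of the macrophage sum, brought to the same total in each library) in 6 weeks 1, 6 weeks 2, 12 months 1 and 12 months 2. Csf1r, the receptor of the growth factor CSF-1, stood at 667, 867, 611 and 701 CPM in the same order, which is kept throughout below. The 3 gate genes cannot serve as a finding, and their log2 differences were -0.26 (C1qa), -0.22 (C1qb) and -0.15 (C1qc). Cells just inside the gate, with 3 to 5 C1q UMIs, numbered 145, 30, 112 and 3, and cells just outside it, with 1 or 2, numbered 595, 338, 327 and 28.

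Libraries that stand apart bear on every result. The macrophage sums held 3976381, 2812963, 3795779 and 656099 UMIs, and the median macrophage had 1982, 2687, 2004 and 7333 UMIs, so 12 months 2 gave few cells sequenced deeply. In 6 weeks 1 the 20 fibroblast markers summed to 14622 CPM in macrophages, against 2216, 2614 and 2779 CPM in the other 3 libraries, all 20 being detected. Its upper estimate of free RNA in the macrophage sum was 48.9%, against 16.7%, 24.5% and 25.2%, and its median mitochondrial share was 4.21%, against 2.28%, 2.06% and 1.88%. Gm42418, a gene that overlaps ribosomal RNA, reached 64556, 14579, 2066 and 4566 CPM. Xist was at 0, 1010, 1143 and 0 CPM and the Y-linked Ddx3y at 103, 0, 0 and 168 CPM, so the library labelled 12-month male and the library labelled 12-month female go against their labels in sex, and labelled sex was not a term of the model. Pairs of the 4 libraries shared 1 to 12 cell barcodes, and at most 1 of a pair's shared barcodes was a macrophage in both.

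No gene passed the test. On the UMI sums of 2 libraries a side, edgeR's quasi-likelihood test with Benjamini-Hochberg adjustment called 0 of 10222 genes (0%) at an adjusted p under 0.05, and the smallest adjusted p was 0.225. Unadjusted p-values under 0.05 were found for 1203 genes (11.8%), of which 787 (7.7%) were higher at 12 months and 416 (4.07%) lower. DESeq2's Wald test on the same sums gave an adjusted p to 1865 genes and called 254 of them (13.6%), with 245 higher (13.1%) and 9 lower (0.483%). With any 1 library left out, an age has 1 library. DESeq2 then called fewer genes without 6 weeks 1, 6 weeks 2 or 12 months 2, and more without 12 months 1. The genes it gave an adjusted p ranged from 1551 to 9659 over these fits, so their counts of calls do not share a base. Most of the 254 calls did not recur without 6 weeks 1, without 6 weeks 2 or without 12 months 2. Most did recur without 12 months 1. The DESeq2 adjusted p-values of single genes given below thus depend on which libraries are included. Both libraries of 12 months lay above both of 6 weeks for 1369 genes (13.4%) and below for 4153 (40.6%) in CPM, or for 2337 (22.9%) and 2706 (26.5%) once TMM factors were applied. The median log2 difference over all genes was -0.05 with TMM factors and -0.28 with library totals alone, and the differences below use TMM factors and are given in log2, 12 months minus 6 weeks, ± SE. DESeq2's calls are given beside the values as those of an alternative test. Counts of list members below are to be read against these shares of all genes. The shares are 7.7% higher and 4.07% lower at an unadjusted p under 0.05, and 13.1% and 0.483% for DESeq2.

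Mid1, which encodes a microtubule-bound ubiquitin ligase on the X chromosome, had the smallest p and was named after its values were seen. It stood at 31.2 and 29.2 CPM at 6 weeks and at 173 and 224 CPM at 12 months, a difference of 2.97 ± 0.30 with an edgeR adjusted p of 0.225. In fibroblasts of the same libraries Mid1 stood at 43.9, 59.2, 191 and 279 CPM, and the difference in macrophages minus that in fibroblasts was 0.62 ± 0.30 (edgeR adjusted p = 0.983). Mid1, Cxcl2, Gdf15, Nlrp3 and Ccl4 were the 5 genes called by DESeq2 and also by edgeR with labelled sex as a covariate and with the labels of the 12-month pair exchanged. These fits called 71 (0.695%) and 12 (0.117%) of the 10222 genes. The exchanged labels are those that follow Xist and Ddx3y. All of these fits use the same sums as the main fit, which called none of the 5 genes, so their agreement is not independent.

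Chemokines, the secreted proteins that steer leukocytes, had the second highest median difference of the 25 lists in macrophages. Of 22 chemokines on the list 20 passed the filter on low counts, 11 had an unadjusted p under 0.05 in the higher direction and 1 in the lower, and DESeq2 called 9 of the 13 it tested, all higher. Their median log2 difference was 1.00, against -0.05 over all genes tested, and 0.71 without 12 months 2. The summed chemokine level was 17245 and 18160 CPM at 6 weeks and 33881 and 46528 CPM at 12 months.

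Cxcl2, which attracts neutrophils through CXCR2, is made in abundance by stimulated macrophages. It stood at 2761 and 2101 CPM at 6 weeks and at 10228 and 13859 CPM at 12 months, with no overlap. The difference was 2.58 ± 0.33 (edgeR adjusted p = 0.317; DESeq2 adjusted p = 4.64e-13), and it was 2.26 without 12 months 2 and 2.76 without 6 weeks 1. Ccl4, a chemokine that draws monocytes and T cells, stood at 409 and 315 CPM at 6 weeks and at 2111 and 6507 CPM at 12 months. Its difference of 3.88 ± 0.61 was called by DESeq2 (adjusted p = 9.56e-15) and was 2.73 without 12 months 2. Ccl4 lies at chr11:83662584-83664683 (+) of GRCm38. Ccl3, its neighbour on chromosome 11, stood at 183, 175, 345 and 1674 CPM, with a difference of 2.80 ± 0.77 that DESeq2 did not call (adjusted p = 0.058). Without the 91 cells of 12 months 2 the difference of Ccl3 was 1.13.

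The monocyte-attracting chemokines differed less. Ccl2 stood at 946, 756, 1191 and 3092 CPM, a difference of 1.63 ± 0.50 called by DESeq2 (adjusted p = 0.00315) that was 0.67 without 12 months 2. Ccl7 stood at 1618, 1158, 2049 and 4056 CPM, with a difference of 1.43 ± 0.41 (DESeq2 adjusted p = 0.0044) that was 0.75 without 12 months 2. The groups do not overlap in either gene, but the 2 libraries of 12 months lie farther apart than those of 6 weeks. Ccl8, an abundant product of tissue macrophages, stood at 3847, 4506, 5492 and 4246 CPM, and its groups overlapped (0.47 ± 0.26). Ccl24, an eosinophil attractant, stood at 663, 970, 957 and 1855 CPM and overlapped too (1.07 ± 0.42, DESeq2 adjusted p = 0.0459), and without 12 months 2 its difference was 0.41. Cxcl9, the interferon-gamma-driven ligand of CXCR3, went the other way at 7.29 and 14.9 CPM against 0.79 and 1.52 CPM, a difference of -3.30 ± 0.76 on few UMIs that DESeq2 gave no adjusted p.

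The promoters of 4 of these genes are shown, those of Cxcl2, Cxcl10, Ccl3 and Tnf, as examples from the chemokine, interferon and cytokine lists; each window holds the 220 bases that end 31 bases before the RefSeq start (build GRCm38.p6), 5′ to 3′ on the gene's strand, with κB matches (the binding motif of NF-κB, either strand) in capitals. The windows are chr5:90903649-90903868 (+) for Cxcl2, chr5:92348920-92349139 (-) for Cxcl10, chr11:83649409-83649628 (-) for Ccl3 and chr17:35202038-35202257 (-) for Tnf.
Cxcl2: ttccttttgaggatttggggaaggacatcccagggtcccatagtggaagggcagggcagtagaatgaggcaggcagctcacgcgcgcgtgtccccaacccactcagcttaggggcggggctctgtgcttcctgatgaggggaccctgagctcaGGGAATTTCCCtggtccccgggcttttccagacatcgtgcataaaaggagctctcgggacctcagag
Cxcl10: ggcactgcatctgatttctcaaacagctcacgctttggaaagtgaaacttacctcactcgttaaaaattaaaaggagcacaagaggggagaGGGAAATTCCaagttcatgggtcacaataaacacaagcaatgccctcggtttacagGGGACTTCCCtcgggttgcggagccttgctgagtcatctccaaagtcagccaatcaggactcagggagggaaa
Ccl3: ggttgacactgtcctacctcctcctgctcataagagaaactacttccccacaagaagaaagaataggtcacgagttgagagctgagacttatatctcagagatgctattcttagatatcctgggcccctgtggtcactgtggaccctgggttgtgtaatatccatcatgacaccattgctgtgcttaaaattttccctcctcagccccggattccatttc
Tnf: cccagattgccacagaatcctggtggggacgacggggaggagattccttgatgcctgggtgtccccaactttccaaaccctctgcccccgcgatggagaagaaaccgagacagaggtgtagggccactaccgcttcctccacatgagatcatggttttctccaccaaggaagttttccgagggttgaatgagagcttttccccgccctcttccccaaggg
The Cxcl2 window holds 2 overlapping κB matches in 1 stretch, the Cxcl10 window holds 2 apart from each other, and the windows of Ccl3 and Tnf hold none.

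Over windows of 250 bases before the start, 1204 of 27025 genes (4.46%) held a κB match. Among the chemokines 5 of the 16 with a window (31.2%) held one, and among the inflammatory cytokines and regulators 10 of 26 (38.5%) did. AP-1 sites, searched as TGANTCA, were in 7.82% of all genes, 18.8% of the chemokines and 23.1% of the inflammatory genes. The antioxidant response element, searched as TGACNNNGC, was in 11.5% of all genes and in 7 of 21 genes (33.3%) of the oxidative stress list. A match describes letters in a window and shows neither binding nor its absence. List members were searched whether or not they differed between the ages, so these shares do not bear on age.

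**Figure D1:**
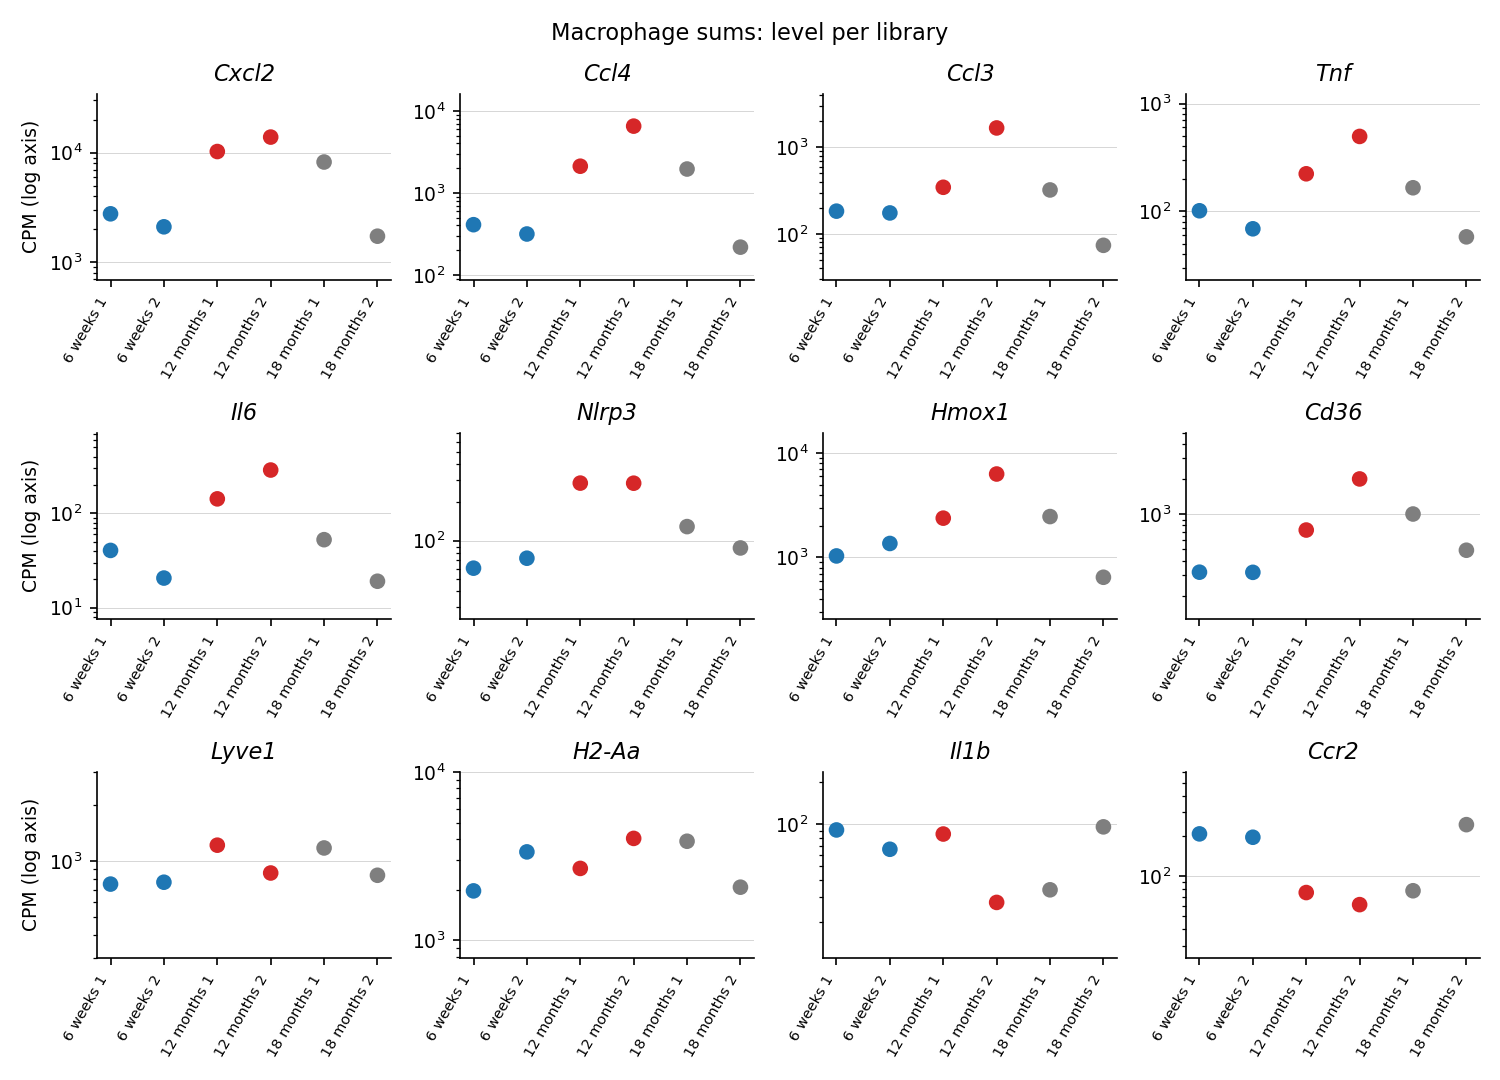
Level of 12 genes in the macrophage sum of each library, in CPM on a log axis, with 1 point per library (blue 6 weeks, red 12 months, grey 18 months). Both red points lie above both blue points for Cxcl2, Ccl4, Ccl3, Tnf, Il6, Nlrp3, Hmox1, Cd36 and Lyve1 and below them for Ccr2, while H2-Aa and Il1b overlap.

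Cytokines and the regulators around NF-κB showed the same direction. Of 35 listed genes 33 were tested, 21 had an unadjusted p under 0.05 in the higher direction and 0 in the lower, and DESeq2 called 15 of 18, all higher. The median difference was 1.19, and it was 0.86 without 12 months 2 and 1.27 without 6 weeks 1. In CPM, 23 of the 33 lay higher in both libraries of 12 months without overlap and 2 lay lower, against 13.4% and 40.6% of all genes.

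Nlrp3, the sensor of the inflammasome that releases IL-1β, stood at 60.9 and 72.9 CPM at 6 weeks and at 284 and 283 CPM at 12 months. The 12-month libraries stood close together here, and the difference was 2.34 ± 0.27 (edgeR adjusted p = 0.257; DESeq2 adjusted p = 6.73e-10). Leaving out any 1 library gave between 2.19 and 2.51. Tnf, the cytokine TNF, stood at 101, 69.0, 223 and 495 CPM, a difference of 2.35 ± 0.47 (DESeq2 adjusted p = 5.96e-06). Il1rn, the antagonist of the IL-1 receptor, stood at 78.2, 135, 208 and 622 CPM (2.24 ± 0.60, DESeq2 adjusted p = 0.000181), and its difference was 1.15 without 12 months 2. Il10, an anti-inflammatory cytokine, stood at 246, 215, 456 and 540 CPM (1.37 ± 0.27, DESeq2 adjusted p = 0.000639). In each of these 4 genes both libraries of 12 months lay above both of 6 weeks.

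Regulators on the same list gave these values. Tnfaip3, which encodes the inhibitor A20, stood at 254, 183, 384 and 712 CPM (1.60 ± 0.39, DESeq2 adjusted p = 0.00115), and its difference was 1.00 without 12 months 2. Nfkbia, the inhibitor IκBα, stood at 838, 764, 1073 and 1215 CPM (0.78 ± 0.26), and DESeq2 did not call it (adjusted p = 0.0589). Nfkb1, a subunit of NF-κB, stood at 227, 189, 400 and 518 CPM (1.41 ± 0.29, DESeq2 adjusted p = 0.00084). Cd14, the co-receptor for lipopolysaccharide, stood at 599, 608, 963 and 1506 CPM (1.31 ± 0.33, DESeq2 adjusted p = 0.00304), and its difference was 0.86 without 12 months 2.

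Other inflammatory genes overlapped or were shared with fibroblasts. Il1b, the cytokine released through the inflammasome, stood at 91.0, 66.1, 85.1 and 27.4 CPM, and its difference of -0.16 ± 0.44 turned to 0.30 without 12 months 2. Ptgs2, the inducible prostaglandin synthase, stood at 129, 34.8, 97.5 and 33.5 CPM, a difference of -0.01 ± 0.68 that was 1.18 without 6 weeks 1 and 2.14 with free RNA subtracted. The groups of both genes overlapped. Il6 stood at 40.5, 20.6, 143 and 288 CPM in macrophages (3.07 ± 0.51, DESeq2 adjusted p = 4.96e-09), but at 228, 186, 286 and 980 CPM in fibroblasts and at 295, 99.5, 188 and 222 CPM in free RNA. The macrophage level of Il6 was below that of fibroblasts in all 4 libraries, and with free RNA subtracted from the macrophage sums its difference was 6.72. That value rests on a floor. In 6 weeks 1 the free RNA estimate, 48.9% of 295 CPM, exceeds the level of 40.5 CPM, so the subtraction left 0 there.

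Interferon-induced genes split. Of 37 tested, 9 were higher and 2 lower, against 7.7% and 4.07% of all genes, with a median difference of 0.27. DESeq2 called 7 of 16 higher and 0 lower, against 13.1% and 0.483% of all genes it tested. Cxcl10, a ligand of CXCR3, stood at 64.1, 40.5, 242 and 631 CPM (3.34 ± 0.56, DESeq2 adjusted p = 9.83e-11). Oasl1, a regulator of the antiviral response, stood at 95.1, 92.1, 334 and 997 CPM (3.12 ± 0.57, DESeq2 adjusted p = 1.65e-09), and its difference was 2.02 without 12 months 2. Rsad2, which encodes viperin, stood at 146, 167, 368 and 2240 CPM (3.37 ± 0.89, DESeq2 adjusted p = 0.0374), with the library of 91 cells far above the rest. Without that library the difference of Rsad2 was 1.42.

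Genes of the immediate early response include several that respond to tissue digestion. Of 39 tested edgeR called 0, and 18 lay higher and 4 lower without overlap in CPM, against 13.4% and 40.6% of all genes. At an unadjusted p under 0.05, 19 were higher and 0 lower. DESeq2 called 15 of 31 higher, and the median difference was 0.71. Maff, a small MAF transcription factor, stood at 56.8, 44.4, 132 and 155 CPM (1.76 ± 0.28, DESeq2 adjusted p = 0.000179). Junb, an AP-1 subunit, stood at 2471, 2018, 3753 and 2983 CPM (0.84 ± 0.26, DESeq2 adjusted p = 0.0348). Fos, another AP-1 subunit, stood at 1220, 1600, 1889 and 948 CPM and overlapped (0.25 ± 0.35). Of 22 heat shock chaperones 2 had an unadjusted p under 0.05, both higher, with a median of -0.03, and Hspa1a stood at 230, 689, 422 and 221 CPM. The part of digestion in the other lists was not tested.

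Antioxidant genes had the third highest median of the 25 lists. Of 25 genes for oxidative stress and glutathione 23 were tested, 12 had an unadjusted p under 0.05 in the higher direction and 1 in the lower, and DESeq2 called 9 of 16, all higher. Their median difference was 0.92, or 0.56 without 12 months 2. Gclc, the catalytic subunit of the enzyme that limits glutathione synthesis, stood at 55.8, 45.1, 129 and 160 CPM (1.77 ± 0.28, DESeq2 adjusted p = 0.000179). Slc7a11, the transporter that imports cystine for glutathione, stood at 10.3, 2.84, 44.8 and 44.2 CPM (2.95 ± 0.53, edgeR adjusted p = 0.317). Txnrd1, thioredoxin reductase, stood at 133, 165, 289 and 643 CPM (1.93 ± 0.45, DESeq2 adjusted p = 0.000181), or 1.14 without 12 months 2. The 12-month libraries lay above the 6-week libraries in all of these. Prdx5, a mitochondrial peroxiredoxin, lay lower at 216, 176, 114 and 93.0 CPM (-0.66 ± 0.25).

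Single genes of NRF2, of autophagy and of heme breakdown gave these values. Nfe2l2, which encodes NRF2 itself, stood at 212, 215, 393 and 381 CPM (1.12 ± 0.24, DESeq2 adjusted p = 0.00549). Sqstm1, the autophagy receptor p62, stood at 244, 300, 539 and 927 CPM (1.71 ± 0.37, DESeq2 adjusted p = 0.000179). Hmox1, heme oxygenase, which breaks down heme to release iron, stood at 1033, 1360, 2379 and 6304 CPM. Its difference of 2.15 ± 0.52 was called by DESeq2 (adjusted p = 4.52e-05) and was 1.17 without 12 months 2. Of 20 heme and iron genes tested, Hmox1 included, 6 had an unadjusted p under 0.05, all higher, against 7.7% of all genes. DESeq2 called 4 of 11 higher, against 13.1% of all genes it tested, and the median was 0.03.

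Secreted growth factors included a few of the most separated genes. The list of 34 tested had a median of 0.37. At an unadjusted p under 0.05 it had 6 genes, all higher, against 7.7% of all genes. Gdf15, a stress-induced member of the TGF-β family, stood at 104, 77.9, 317 and 559 CPM (2.54 ± 0.39, DESeq2 adjusted p = 6.55e-09). Areg, the epidermal growth factor relative amphiregulin, stood at 28.2, 19.2, 83.2 and 113 CPM (2.29 ± 0.34, edgeR adjusted p = 0.317). Hbegf, another ligand of that receptor, stood at 147, 213, 400 and 747 CPM (1.95 ± 0.41, DESeq2 adjusted p = 5.64e-05). Igf1, insulin-like growth factor, stood at 333, 444, 328 and 398 CPM and overlapped (0.17 ± 0.29).

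Lipid handling differed gene by gene. Of 25 genes tested 4 were higher and 3 lower at an unadjusted p under 0.05, against 7.7% and 4.07% of all genes. DESeq2 called 3 of 16 higher and 2 lower, against 13.1% and 0.483% of all genes it tested. The median difference was -0.10. Cd36, a scavenger receptor that imports fatty acids and oxidised lipoprotein, stood at 318, 317, 731 and 2004 CPM (2.40 ± 0.52, DESeq2 adjusted p = 4.59e-06), and at 1.38 without 12 months 2. Plin2, the coat protein of lipid droplets, stood at 259, 271, 586 and 652 CPM (1.49 ± 0.26, DESeq2 adjusted p = 9.17e-05). The 2 genes that DESeq2 called lower were Fabp4 and Lpl. Fabp4, a carrier of fatty acids, stood at 577, 238, 82.2 and 131 CPM (-1.69 ± 0.49, DESeq2 adjusted p = 0.00344), and its difference was -0.94 without 6 weeks 1. Fabp4 is also on the lists of endothelial and adipocyte markers, and it had no value in the fit with free RNA subtracted. The part of those cells and of free RNA in its difference was not tested. Lpl, lipoprotein lipase, stood at 328, 266, 138 and 92.97 CPM (-1.10 ± 0.28, DESeq2 adjusted p = 0.018). Apoe, the lipid carrier, stood at 14573, 19831, 15411 and 11610 CPM and overlapped (-0.10 ± 0.28). Trem2, the lipid receptor of damage-associated macrophages, stood at 200, 107, 69.6 and 79.3 CPM (-0.80 ± 0.35, edgeR adjusted p = 0.438), and its difference was -0.30 without 6 weeks 1. Spp1, which encodes osteopontin, stood at 252, 0.355, 42.2 and 0 CPM and Gpnmb at 85.0, 2.49, 20.3 and 4.57 CPM. The libraries of each age stood far apart, and without 6 weeks 1 the difference turned from -2.04 to 6.13 for Spp1 and from -1.33 to 2.71 for Gpnmb.

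Receptors showed both directions. Of 30 tested, 7 were higher and 4 lower at an unadjusted p under 0.05, against 7.7% and 4.07% of all genes. Ccr1, a receptor of CCL3, stood at 144, 156, 298 and 489 CPM (1.66 ± 0.34, DESeq2 adjusted p = 0.000264). C5ar1, the receptor of complement fragment C5a, stood at 249, 247, 401 and 524 CPM (1.17 ± 0.28, DESeq2 adjusted p = 0.00655). Ccr2, the receptor that brings monocytes from blood, stood at 206 and 195 CPM at 6 weeks and at 75.1 and 61.0 CPM at 12 months. Its difference of -1.30 ± 0.25 was among the 9 genes that DESeq2 called lower (adjusted p = 0.00474), and leaving out any 1 library gave between -1.37 and -1.24. The 14 monocyte markers, Ccr2 among them, summed to 1597, 1309, 1542 and 512 CPM. Of the 11 tested, 2 lay lower without overlap in CPM, Ccr2 included, and 0 higher, against 40.6% and 13.4% of all genes.

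Genes of resident perivascular macrophages differed little. Of 30 tested, 5 had an unadjusted p under 0.05, all higher, against 7.7% of all genes. DESeq2 called 4 of 29, all higher, against 13.1% of all genes it tested, and the median difference was 0.23. That median was -0.03 with library totals alone. Lyve1 stood at 749, 766, 1215 and 860 CPM (0.70 ± 0.26, edgeR adjusted p = 0.389; DESeq2 adjusted p = 0.0999). Folr2 stood at 1343, 1858, 1555 and 1151 CPM with a difference of 0.01 ± 0.29. Fcna, a ficolin that recognises microbial sugars, stood at 295, 534, 1041 and 812 CPM (1.41 ± 0.35, DESeq2 adjusted p = 0.00197). Retnla, a marker of alternative activation, stood at 4060, 20940, 26346 and 17828 CPM, so that 6 weeks 1 alone lay low. The difference of Retnla was 1.06 ± 0.72 and became 0.30 without 6 weeks 1.

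Of the genes for antigen presentation edgeR and DESeq2 both called 0. H2-Aa, a chain of MHC class II, stood at 1966, 3354, 2674 and 4034 CPM and overlapped (0.61 ± 0.38), and of 12 class II genes 1 had an unadjusted p under 0.05. Their median was 0.41, or 0.09 without 12 months 2. Of 20 class I genes 4 had an unadjusted p under 0.05, all lower, with a median of -0.03. In CPM 12 of the 20 lay lower without overlap, against 40.6% of all genes, and 8 did once TMM factors were applied, against 26.5%. Psmb8, a subunit of the immunoproteasome, stood at 240, 200, 119 and 67.1 CPM (-0.97 ± 0.30, edgeR adjusted p = 0.348).

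Proliferation genes had the lowest median of the 25 lists. Of 27 listed 21 passed the filter, 11 had an unadjusted p under 0.05 in the lower direction and 2 in the higher, and the median difference was -1.13, the same when the gene at 0 was set to its bound. DESeq2 called 2 of the 4 it tested, both higher. The summed level was 1247, 1467, 1565 and 1187 CPM and overlapped, and the genes named here were low. Top2a, the topoisomerase of dividing cells, stood at 15.6, 24.2, 4.74 and 1.52 CPM (-2.10 ± 0.50, edgeR adjusted p = 0.317), and its difference was -3.32 without 12 months 1. Mki67, which encodes the antigen Ki-67, stood at 15.8, 19.9, 4.22 and 7.62 CPM (-1.56 ± 0.47), or -0.87 without 12 months 1. Cenpf, a kinetochore protein, had 50 UMIs at 6 weeks and 0 at 12 months, at least 10.9-fold lower against a floor of 3 UMIs over the age. Pcna, the clamp of DNA replication and repair, went the other way at 43.0, 75.0, 77.7 and 195 CPM (1.45 ± 0.53, DESeq2 adjusted p = 0.0276), or 0.58 without 12 months 2.

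Housekeeping lists lay near the median of all genes. Of 74 genes for oxidative phosphorylation 0 were higher and 5 lower at an unadjusted p under 0.05, with a median of -0.14, and edgeR and DESeq2 both called 0. Of 82 cytosolic ribosomal protein genes 13 were higher at an unadjusted p under 0.05 and 0 lower, against 7.7% and 4.07% of all genes. DESeq2 called 10 of 82 higher, against 13.1% of all genes it tested. The median was 0.15, or -0.10 with library totals alone. Rps21, of the small subunit, stood at 1152, 1916, 3388 and 2745 CPM (1.25 ± 0.32, DESeq2 adjusted p = 0.00388), and Rpl38, of the large subunit, had a difference of 1.30 ± 0.34. The same 2 genes differed by 1.42 and 1.48 in fibroblasts.

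**Figure D2:**
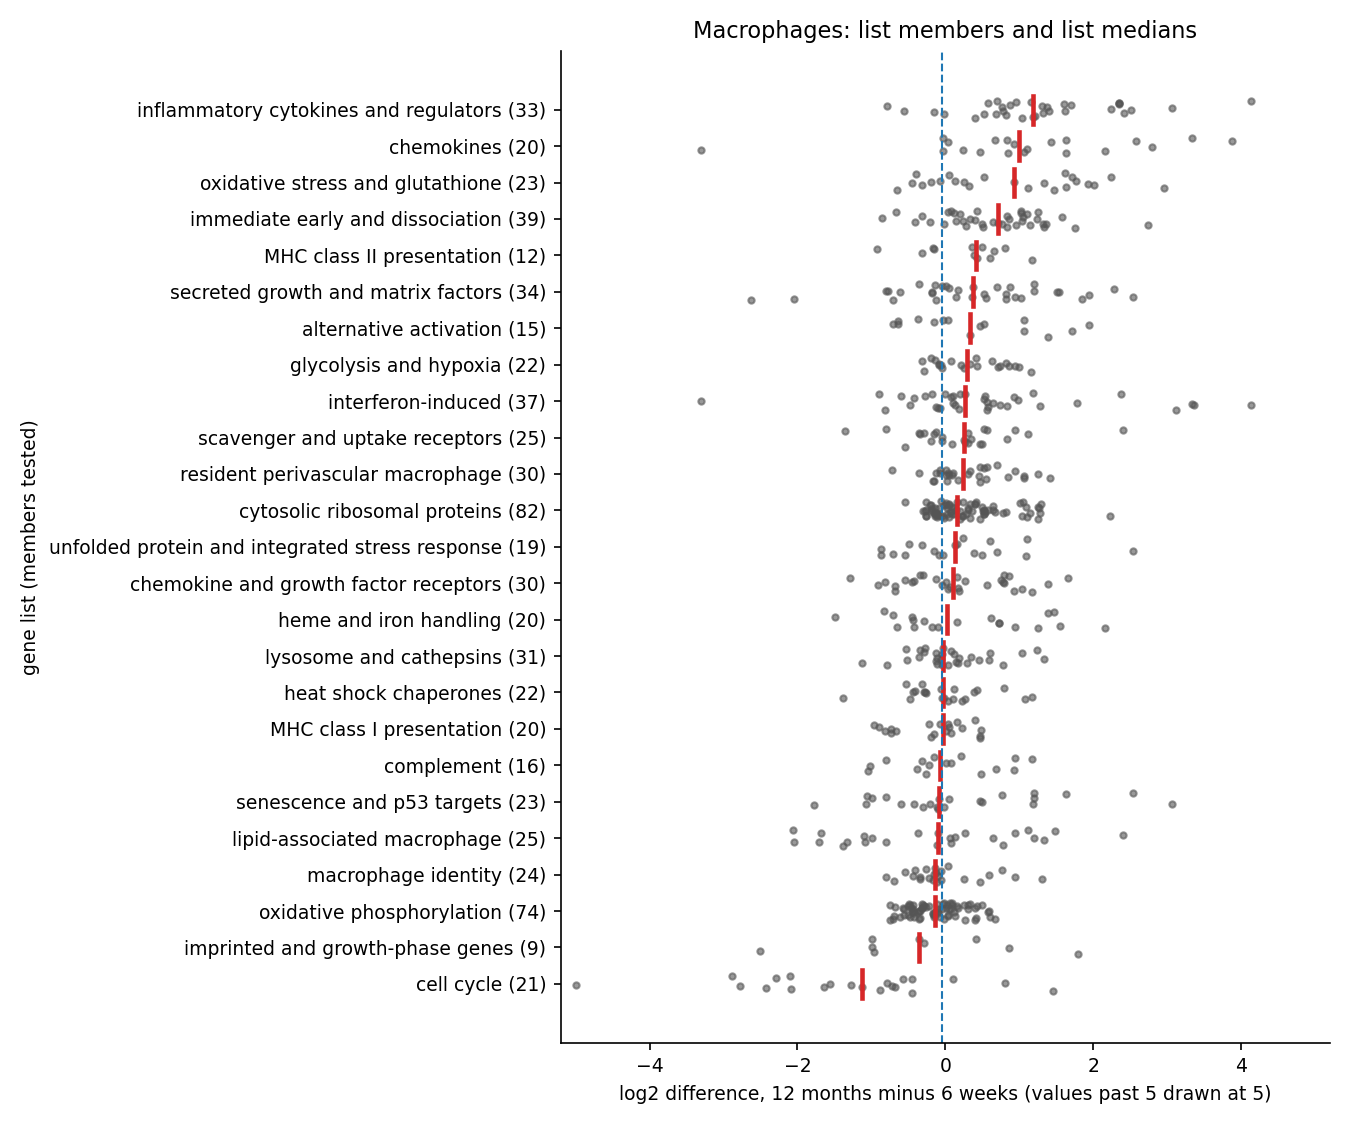
Log2 difference, 12 months minus 6 weeks, of every tested member (grey points) of 25 gene lists in macrophages, with the list median in red and the median of all genes (-0.05) as a dashed line. The medians of the inflammatory (1.19), chemokine (1.00), oxidative stress (0.92) and immediate early (0.71) lists lie to the right, and that of the cell cycle (-1.13) to the left.

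Markers of other cells in the gate were measured beside these lists. Neutrophil markers summed to 146, 135, 340 and 588 CPM, and 4 of the 5 tested had an unadjusted p under 0.05 in the higher direction, with 3 of 13 at 0 in all 4 libraries. Dendritic cell markers summed to 234, 429, 430 and 809 CPM. Endothelial markers, Fabp4 among them, summed to 776, 319, 114 and 162 CPM, and 9 of 12 tested had an unadjusted p under 0.05 in the lower direction. T and NK cell markers summed to 37.0, 39.5, 30.8 and 1.52 CPM. The part of these cells in the results was not tested. Leaving out macrophages with at least as many fibroblast marker as C1q UMIs (189, 36, 90 and 1 cells) gave 4 genes called by edgeR and a Cxcl2 difference of 2.55.

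Shares of cells were compared at 1 depth, since the libraries differed in UMIs per cell. Each cell was thinned to 1500 UMIs, which left out 528, 129, 452 and 1 shallower macrophages and kept 1211, 811, 1258 and 90. Ccl3 or Ccl4 was then detected in 29.98% (95% Clopper-Pearson interval 27.4 to 32.6) and 26.4% (23.4 to 29.6) of macrophages at 6 weeks and in 52.2% (49.4 to 55.0) and 82.2% (72.7 to 89.5) at 12 months, intervals that cover counting error alone. The means differed by 39.0 percentage points, with an exact two-sided permutation p = 0.333 over the 4 libraries, the smallest that 2 against 2 allows. In fibroblasts, which should lack these genes, the thinned share was 0.626%, 0.584%, 1.16% and 1.31%. Unthinned, the macrophage shares were 33.6%, 34.1%, 53.7% and 90.1%, at median depths given above.

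The shares for single genes, added after the levels had been seen, ran the same way. Cxcl2 was detected in 68.4%, 51.5%, 85.4% and 91.1% of thinned macrophages, against 14.5%, 7.14%, 25.9% and 47.7% of thinned fibroblasts. Tnf was detected in 13.5%, 9.74%, 24.4% and 43.3% of macrophages, and in at most 0.299% of fibroblasts. Hmox1 was detected in 62.2%, 66.5%, 82.4% and 94.4% of macrophages. Ccr2 was detected in 19.2%, 14.7%, 7.07% and 10.0%, and in at most 0.183% of fibroblasts. Il6 was found in 4.54%, 1.97%, 13.1% and 17.8% of macrophages, below the 21.1%, 17.8%, 24.4% and 47.7% of fibroblasts in every library.

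The shares with resident and with class II genes overlapped between the ages. Lyve1 or Folr2 was detected in 76.3%, 88.2%, 89.0% and 82.2% of thinned macrophages (exact permutation p = 0.667) and in at most 1.49% of fibroblasts. At least 3 UMIs of H2-Aa, H2-Ab1 or H2-Eb1 were found in 47.0%, 68.4%, 66.9% and 88.9% of macrophages (exact permutation p = 0.667). Trem2, Spp1 or Gpnmb was detected in 26.6%, 14.6%, 9.94% and 13.3% of macrophages and in 9.71%, 9.87%, 11.1% and 15.5% of fibroblasts. Both shares at 12 months lay below both at 6 weeks, and the means differed by -8.93 percentage points (exact permutation p = 0.333, the smallest possible). At 12 months the macrophage share was below the fibroblast share of the same library. Leaving out any 1 library gave between -14.955 and -2.92 points, the latter without 6 weeks 1. In unthinned cells the difference was -2.91 points and the ages overlapped. Unthinned, 12 months 1 stood at 13.98% and 12 months 2 at 35.2%. The latter lay above both libraries of 6 weeks, the higher of which stood at 29.96%.

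**Figure D3:**
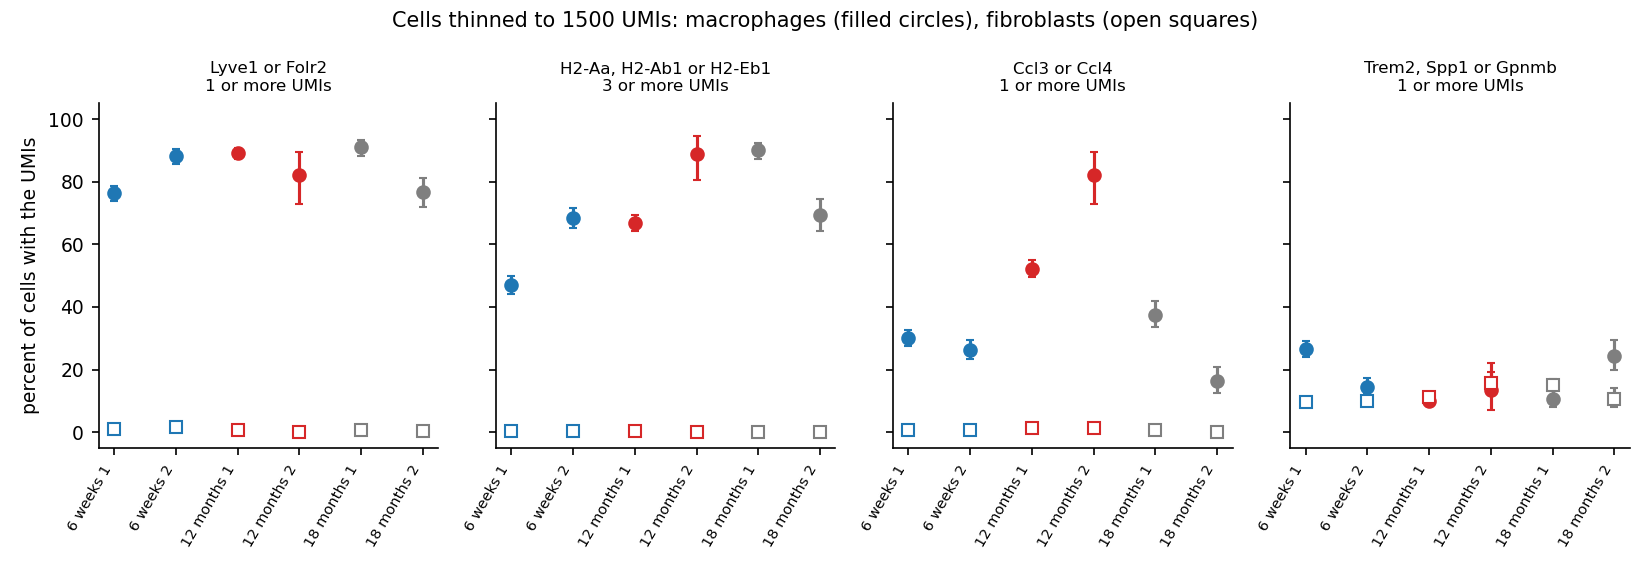
Percent of cells with UMIs of 4 gene sets after thinning to 1500 UMIs, per library, in macrophages (filled circles) and fibroblasts (open squares), with 95% Clopper-Pearson intervals. For Ccl3 or Ccl4 both red circles (52.2% and 82.2%) lie above both blue ones (29.98% and 26.4%), the circles of the ages overlap for Lyve1 or Folr2 and for MHC class II, and for Trem2, Spp1 or Gpnmb both red circles (9.94% and 13.3%) lie below both blue ones (26.6% and 14.6%) and just below the red squares (11.1% and 15.5%).

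Fibroblasts of the same digests served as the comparison cell type. They were cells with at least 3 UMIs of Col1a1, Col1a2 and Dcn together and none of C1q or Ptprc, 9311 in the 4 libraries. In fibroblasts edgeR called 0 of 12115 genes (0%), with 1079 at an unadjusted p under 0.05 (8.91%). A model of both cell types with the library as a block tested whether the difference between ages itself differed, and called 0 of 12177 genes (0%), with 509 (4.18%) at an unadjusted p under 0.05.

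The inflammatory list had a median difference of 1.19 in macrophages (33 members tested) and 0.80 in fibroblasts (28). The oxidative stress list had 0.92 and 0.69 (23 members in each). The median over genes of the difference in macrophages minus that in fibroblasts was 0.51 and 0.145 for these lists. Cxcl2 stood at 260, 145, 703 and 2601 CPM in fibroblasts, a difference of 3.14, and the difference in macrophages minus that in fibroblasts was -0.40 ± 0.53. Hmox1 stood at 123, 76.5, 196 and 902 CPM in fibroblasts (2.58), and Gdf15 differed by 3.23 there. These genes thus lay higher in both cell types of the 12-month libraries. Ccl4 stood at 2.74 to 5.97 CPM in fibroblasts, a level near background, and differed by 1.20 there. In macrophages Ccl4 differed by 2.32 ± 0.48 more (edgeR adjusted p = 0.921). The part of free RNA in its fibroblast value was not tested. The chemokine list had a median of 1.00 in macrophages (20 members tested) and 0.14 in fibroblasts (18), and a median gap over genes of 0.96.

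Cd36 and Lyve1 differed in opposite directions in the cell types. Cd36 was lower at 12 months in fibroblasts (97.3, 48.1, 18.3 and 29.8 CPM) and higher in macrophages, a gap of 3.58 ± 0.46 with an edgeR adjusted p of 0.33. Lyve1 was at 1.81, 2.27, 0.493 and 0.206 CPM in fibroblasts, a level near background, and the gap was 2.96 ± 0.41 (edgeR adjusted p = 0.33). In free RNA Lyve1 stood at 183, 114, 98.7 and 42.6 CPM, and its part in the fibroblast value was not tested.

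**Figure D4:**
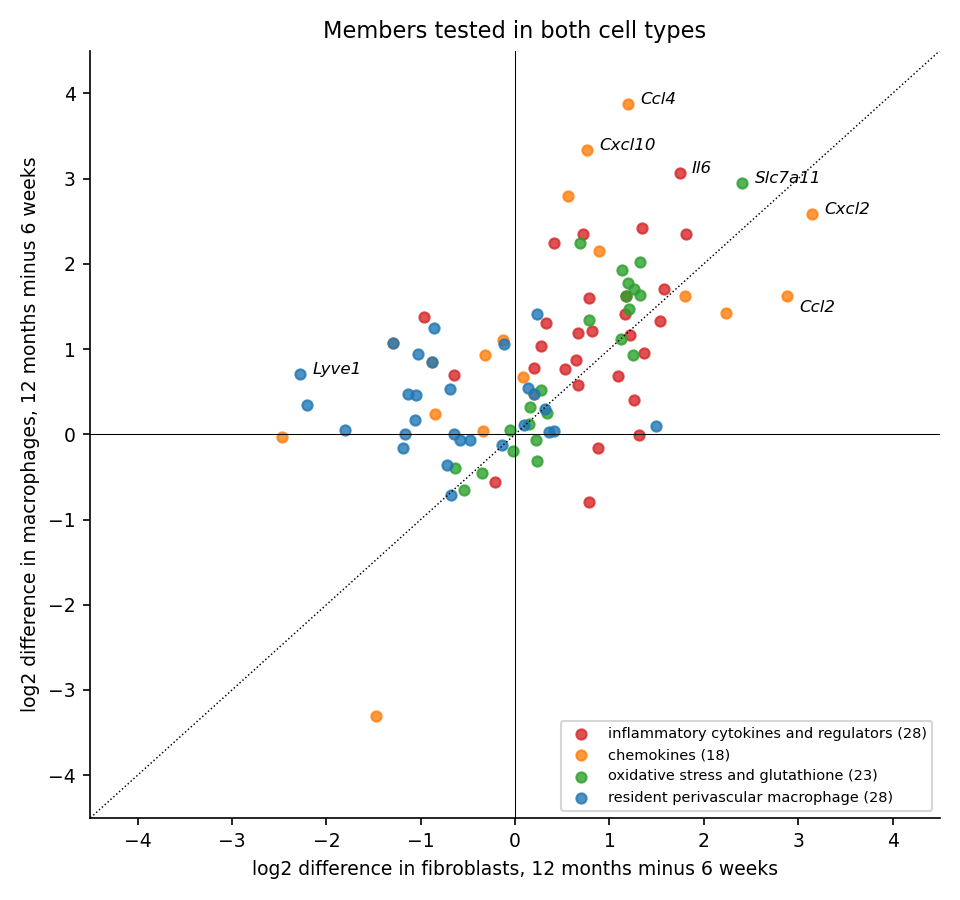
Log2 difference, 12 months minus 6 weeks, in fibroblasts (horizontal) and macrophages (vertical) for members of 4 lists tested in both, 1 point per gene, with the line of equal difference dotted. Cxcl2 lies near the line (3.14 and 2.58), Ccl4 lies above it (1.20 and 3.88), and resident macrophage genes such as Lyve1 lie to the left of 0. The fibroblast levels of Ccl4 and Lyve1 are near background.

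The libraries of 18 months did not continue the difference as a pair. The chemokine list summed to 30044 CPM in 18 months 1 and to 12721 CPM in 18 months 2, the latter below both libraries of 6 weeks. The oxidative stress list summed to 13299 and 7395 CPM there. Cxcl2 stood at 8203 and 1724 CPM, Ccl4 at 1951 and 218 CPM, and Hmox1 at 2464 and 645 CPM. Ccr2 stood at 77.4 CPM in 18 months 1, near the level of 12 months, and at 242 CPM in 18 months 2, above that of 6 weeks. Age, supplier and library cannot be told apart for these 2 libraries.

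The share of macrophages among cells did not separate the ages. Macrophages were 21.1% (95% Clopper-Pearson interval 20.3 to 22.03) and 20.9% (19.7 to 22.1) of cells at 6 weeks and 26.9% (25.8 to 28.0) and 9.11% (7.40 to 11.1) at 12 months. The means of 21.0% and 18.0% differed by -3.02 percentage points (exact two-sided permutation p = 1). The 2 libraries of 12 months lay on either side of those of 6 weeks, and without 12 months 2 the difference was 5.87 points.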

How the data were processed

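The deposited values are raw UMI counts per gene and barcode, which the authors made with Cell Ranger 3.0.2 against mm10, per the submitters' processing notes and the file headers. Seurat is named there without a version. The labels name v2 chemistry, while 6794880 barcodes are listed per library, and which kit was used was not settled. No cell calling, doublet removal or normalisation had been applied to the counts.

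The 71 gene IDs that share a symbol were summed, which left 31017 symbols, and 30976 of these matched GENCODE M21 (GRCm38), the source of coordinates; promoter sequences came from RefSeq (GRCm38.p6). Macrophage UMIs were summed per library, since cells are not replicates. The test was edgeR 4.0.16 in R 4.3.3 on 2 sums a side (TMM factors of 1.11, 1.08, 0.966 and 0.863, filterByExpr by age, robust quasi-likelihood fit, no covariate), with DESeq2 1.42.0 as an alternative. DESeq2's missing adjusted p-values were kept missing. CPM divides by the macrophage sum. Shares used cells thinned to 1500 UMIs, under Python 3.11.15 with scipy 1.17.1 and scanpy 1.11.5. Free RNA was read from barcodes of 10 to 100 UMIs. Doublets were kept in the main analysis. Scrublet (6% expected) marked 171, 26, 105 and 0 macrophages, and in 12 months 2 it marked 0.100% of cells, too few to rely on.

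Library totals were 28921825, 18244101, 23208824 and 9616652 UMIs. On simulated data with 9896 genes, the edgeR comparison called 38 of 40 genes at a log2 change of 2, 11 of 40 at 1, 35 of 40 at -2 and 3 of 40 at -1, with 4 of 9696 unchanged genes called. The simulated spread depended on level alone, changes were put only in genes above a set level, and no library stood apart. The real sums differ in these points, so the rates do not give the power of the real comparison. Named genes were up to 3 members per list by smallest p plus a list of identity, resident, antigen-presenting, chemokine and stress genes, and Mid1, Gdf15, Areg, Ccl7, Il1rn, Junb, Mki67, Mmp9, Nfe2l2, Nfkb1, Nfkbia, Pcna, Prdx5, Ptgs2, Rsad2, S100a8, Tnfaip3, Txnrd1, Fabp4 and Lpl were chosen after their values were seen. The members and lists were chosen with earlier results of these data known. Alternatives changed the scaling, test, filters, gate, depth, doublets, free RNA, covariates and libraries. The authors' cell annotation was not used here.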

Additional observations from a re-analysis of the deposited data

How the results depend on the processing

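Of 115 named genes under 2279 pairs of gene and alternative, 2243 pairs kept the direction and 103 genes kept it in all alternatives. The count of 0 genes called by edgeR (0 list members) became 254 (90) with DESeq2, 460 (96) with no filter on low counts, 71 (29) with labelled sex, 12 (7) with the 12-month labels exchanged, 10 (7) with sums thinned to 656099 UMIs, 4 (3) without cells rich in fibroblast markers and 1 with Scrublet's doublets removed. Leaving out each library gave 0 to 263 (0 to 63 list members), 0 to 52 genes for the difference from fibroblasts, and 16 to 273 for DESeq2. With 1 library left in an age, that library is assumed to vary like the others. The macrophage share gave -11.9 to 5.87 points and Lyve1 or Folr2 gave -2.54 to 9.33 points over the left-out libraries, the latter being -2.54 without 6 weeks 1 and -0.00945 without 12 months 1. Signs turned for Csf1r (-0.23), Folr2 (-0.24) and Igf1 (-0.10) with library totals alone. Over the left-out libraries, 12 named genes changed sign, with these lowest and highest values: C1qc -0.31 to 0.028, Csf1r -0.16 to 0.27, Folr2 -0.23 to 0.29, H2-Eb1 -0.050 to 0.81, Apoe -0.33 to 0.17, Igf1 -0.062 to 0.42, Spp1 -11.3 to 6.13, Gpnmb -2.91 to 2.71, Il1b -1.17 to 0.30, Hspa1a -0.88 to 0.76, Ptgs2 -0.94 to 1.18 and Fos -0.23 to 0.60. Thinned sums turned Csf1r (-0.093), Folr2 (-0.074) and Igf1 (-0.066). Folr2 was also -0.020 with no filter, -0.015 with at least 1000 genes, -0.021 without doublets and -0.019 without cells rich in fibroblast markers. Ptgs2 turned to 0.00085 with DESeq2's size factors, 0.18 with the 12-month labels exchanged, 0.026 with the gate at 6 UMIs, 0.0040 with the gate after thinning, 0.47 without doublets, 2.14 with free RNA subtracted and 0.73 without cells rich in fibroblast markers. The cause of these changes was not tested. Averaging the shares over all possible thinnings, and leaving out libraries under DESeq2, were added after seeing the data. No paired analysis was possible because the labels give no replicate numbers and pair no samples; the fit with labelled sex has the same terms as a block on the numbers 1 and 2 used here. The 91 cells of 12 months 2 limit every value at 12 months.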

Other observations

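Genes of other lists, which belong to no comparison above, gave these values in macrophages in the same order of libraries. Mdm2, the ubiquitin ligase that restrains p53, stood at 132, 102, 210 and 236 CPM, a log2 difference of 1.19 ± 0.27 (SE; DESeq2 adjusted p = 0.00928), and of 23 tested genes for senescence and p53 targets 5 had an unadjusted p under 0.05 in the higher direction and 1 in the lower, with a median of -0.09. Mmp9, a collagenase that neutrophils also carry, stood at 94.3, 91.7, 183 and 373 CPM (1.85 ± 0.41, DESeq2 adjusted p = 0.000283), and its difference was 1.16 without 12 months 2. S100a8, an abundant neutrophil product, stood at 6.29, 3.56, 22.7 and 117 CPM in macrophages and at 29.0, 49.5, 81.7 and 1304 CPM in free RNA. Tfrc, the transferrin receptor, stood at 35.0, 70.7, 143 and 85.4 CPM (1.38 ± 0.40, DESeq2 adjusted p = 0.0242).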
